A study of Sus scrofa with 9 samples.

Results

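The genes described here act in the DNA damage response and in DNA repair. The set was a fixed list of 47 gene symbols, and members were the rows of the deposited table that carry one of these symbols. Of the 47 symbols, 44 had a row among the 23507 genes of the table. XRCC3, XRCC4 and OGG1 had no row under their symbol and were not analysed here. All 44 members passed the filter on low counts, so that none was lost before testing.

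Cells meet broken or altered DNA with kinases that signal the damage (ATM and ATR, with CHEK1 and CHEK2 below them) and with separate repair routes for each kind of lesion. Breaks of both strands are mended by homologous recombination, which copies an intact partner, or by end joining, which ligates the ends directly. Mismatch repair corrects copying errors, base excision repair removes small damaged bases, nucleotide excision repair removes bulky lesions, and the Fanconi anaemia pathway handles crosslinks between the strands. A mature oocyte transcribes little or nothing, so that the RNA it has stored provides for repair of both its own chromosomes and, after fertilisation, the paternal ones.

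The libraries hold oligo(dT)-primed RNA of oocytes of the pig (Sus scrofa) at MII, metaphase II, in which oocytes wait for fertilisation. The labels give the genotype as WT and no age. Oocytes enclosed in cumulus cells were matured in culture in 3 groups, each with 3 libraries. In the heat plus L-Asp group, immature (germinal vesicle) oocytes spent 24 h at 41.5 °C with L-Asp (by its usual meaning L-aspartic acid, an amino acid) and then went to 38.5 °C until MII. The labels list 0.5, 1.0 and 1.5 mmol/L L-Asp and do not say which was sequenced. The heat stress group had the same 24 h at 41.5 °C without L-Asp. Control oocytes are taken to have been kept at 38.5 °C, the temperature of the general culture protocol. All groups shared a maturation medium with porcine follicular fluid, gonadotrophins and EGF. The labels give 25 oocytes per group and do not say how these were divided over the libraries or whether libraries came from separate animals, so that the p-values cover library-to-library spread alone, which may be technical.

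Library totals were 41693395 to 49008681 counts with heat plus L-Asp, 46198885 to 53327419 with heat stress and 54965064 to 58361475 in control. The control libraries were far closer to each other than other replicates were. Between pairs of them the dispersion index, which is near 1 where libraries differ by counting noise alone, had a median of 5.19 to 5.22 over all genes and 4.3 to 7.24 over the members. Among the members it was 114 to 260 between heat plus L-Asp libraries and 262.5 to 348 between heat stress libraries. The control libraries were therefore averaged into 1, and the fit used 7 libraries, with the lone control assumed to vary like the others. Control libraries also detected more genes (17433 to 17685) than heat plus L-Asp (15042 to 15509) and heat stress libraries (14730 to 15808). The share of counts from mitochondrial DNA was 5.3%, 9.47% and 9.29% with heat plus L-Asp, 3.09%, 5.18% and 14.5% with heat stress and 10.0% to 10.1% in control. The tissue label was checked with oocyte markers, of which 13 of 15 listed genes had a row and none was at 0 in any group. Their summed level, in CPM (counts relative to the TMM-scaled library total), was 19770 to 22970 CPM with heat plus L-Asp, 15620 to 20090 CPM with heat stress and 31390 to 31650 CPM in control. Without BTG4 and KPNA7, the most abundant of them, the sums were 7919 to 10500, 6691 to 7332 and 10910 to 11080 CPM in the same order. Single oocyte markers differed in both directions. Cumulus and granulosa markers (21 of 25 with a row) summed to 1290 to 1328, 1309 to 1663 and 1251 to 1293 CPM in the same order of groups, most of it from RGS2 and VCAN. Without these genes the sums were 222 to 305, 157 to 277 and 194 to 200.4 CPM, and single markers that differed are given beside the comparisons. PTX3 was at 0 throughout, LHCGR and AMH were at 0 with heat stress and in control, NR5A1 was at 0 with heat stress, and INHBA and GATA6 were at 0 in control. Theca and stroma markers summed to at most 12.5 CPM, blood and immune markers to at most 5.1 CPM and endothelial markers to at most 42.6 CPM in any library. The part of other cells' RNA in the values below was not tested. In bulk samples, fewer cells of a type and less RNA per cell cannot be told apart.

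Levels between genes were read from the authors' FPKM values, which are per kilobase of transcript. The RNA was primed by oligo(dT), so that the amount of an RNA and the state of its poly(A) tail cannot be told apart. The 44 members spanned a wide range. Means of at least 10 FPKM were reached by 19 members with heat plus L-Asp, 21 with heat stress and 19 in control. Means under 1 FPKM were found for 6, 6 and 5 members. The median member lay at 7.02 FPKM with heat plus L-Asp, 8.42 FPKM with heat stress and 8.82 FPKM in control.

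PCNA, the ring that clamps DNA polymerases to the template in replication and repair, stood far above every other member. It measured 3149 ± 336 FPKM with heat plus L-Asp and 2857 ± 288 FPKM with heat stress (SD, n = 3 each), and 3030 to 3111 FPKM in the control libraries. PCNA made up 79.5% to 82.5% of the summed FPKM of the members with heat plus L-Asp, 74.8% to 81.6% with heat stress and 81.0% to 81.5% in control. Among all genes of the table it ranked between 14 and 28 in every library. The other enzymes of base excision and single-strand break repair were far lower. UNG, which cuts uracil out of DNA, averaged 29.1 ± 4.1, 22.3 ± 5.94 and 28.8 FPKM in heat plus L-Asp, heat stress and control. The ligase LIG3 averaged 12.1 ± 1.46, 18.8 ± 7.82 and 11.8 FPKM in these groups. The break sensors PARP1 and PARP2 averaged between 9.86 and 11.9 FPKM, whereas LIG1, the flap nuclease FEN1 and the scaffold XRCC1 averaged at most 2.004 FPKM in any group.

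**Figure D1:**
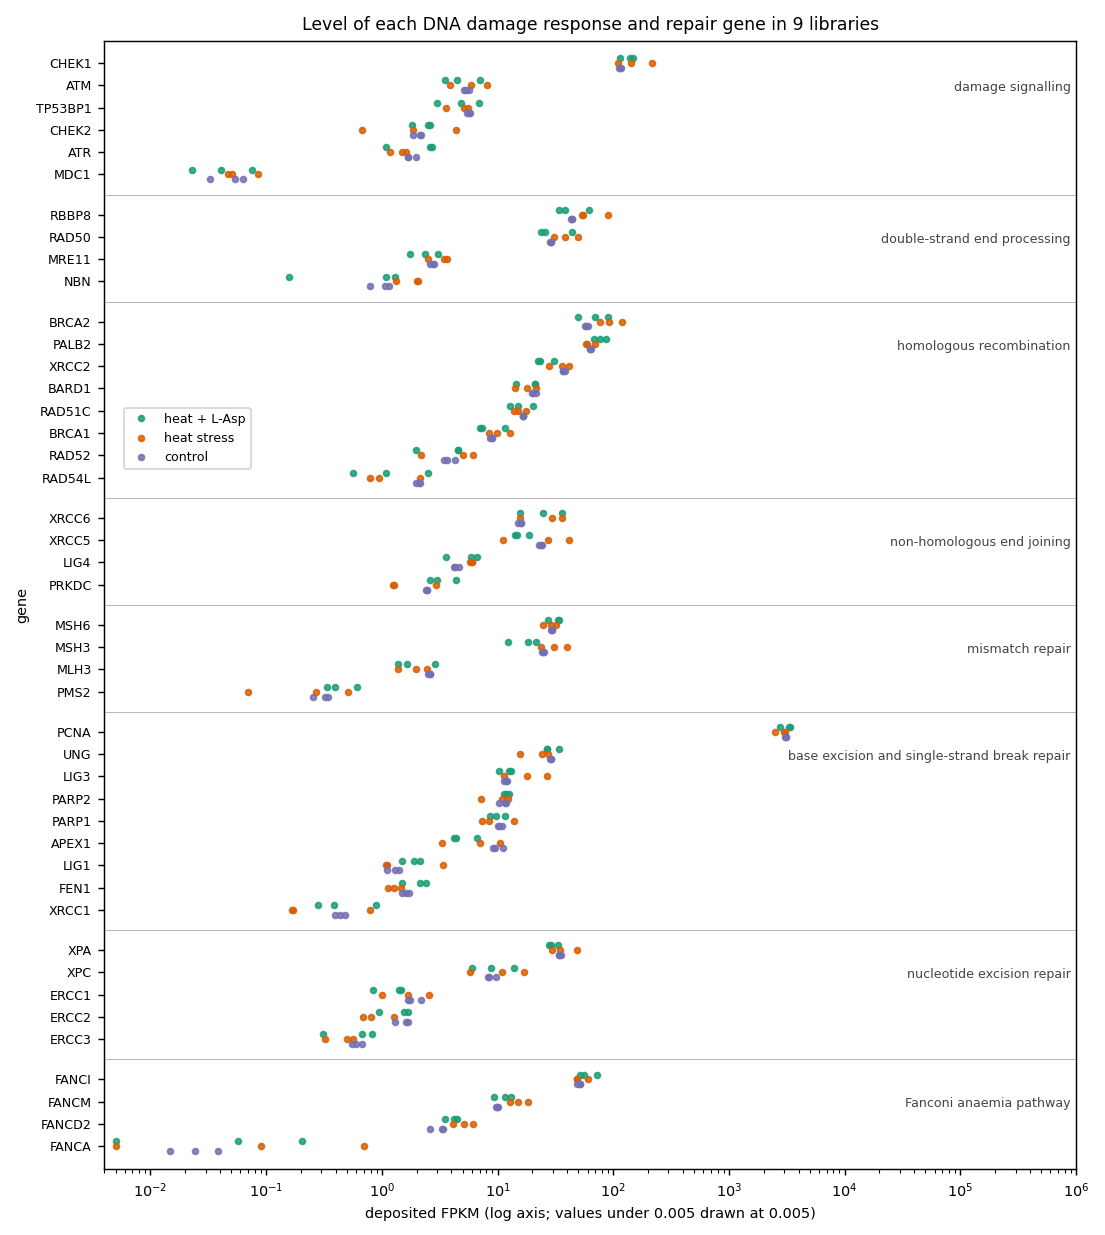
Deposited FPKM (log axis) of the 44 genes in each of 9 libraries, sorted by repair route and level; each point is 1 library, with heat plus L-Asp, heat stress and control in separate colours. PCNA stands at 2525 to 3374 FPKM, CHEK1, BRCA2 and PALB2 follow, and MDC1 and FANCA are near the lower end.

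Within each repair route the members were measured at very unequal levels. In damage signalling CHEK1, the checkpoint kinase below ATR, led with 134 ± 17.7 FPKM with heat plus L-Asp, 157 ± 54.0 FPKM with heat stress and 114 FPKM in control. Its FPKM was 44.2 to 82.1 times that of CHEK2, the kinase below ATM, with heat plus L-Asp, 49.7 to 164 times with heat stress and 51.7 to 61.0 times in control. ATM averaged 4.996, 5.997 and 5.39 FPKM and ATR 2.14, 1.42 and 1.78 FPKM in heat plus L-Asp, heat stress and control, and the break adaptor TP53BP1 4.92, 4.75 and 5.65 FPKM. MDC1, which binds phosphorylated histone beside breaks, had 0.213 to 0.627 CPM with heat plus L-Asp, 0.405 to 0.623 CPM with heat stress and 0.305 to 0.577 CPM in control. A count of 0 would allow up to 3 counts, or 0.0572 to 0.0711 CPM in these libraries, for counting error only.

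Double-strand ends are trimmed by the MRE11-RAD50-NBN complex with RBBP8 (CtIP). The genes of this complex were not measured at equal levels. RAD50 exceeded MRE11 by 9.99 to 14.7 times in FPKM with heat plus L-Asp, 10.5 to 14.3 times with heat stress and 10.3 to 10.8 times in control. RAD50 exceeded NBN by 21.8 to 163.5 times, 18.6 to 24.3 times and 25.3 to 36.4 times in the same groups. RBBP8 was the most abundant of the 4, at 44.8 ± 14.9, 65.9 ± 20.6 and 43.6 FPKM.

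In homologous recombination BRCA2, which loads the recombinase onto DNA, and PALB2, which recruits BRCA2, were the leading genes. BRCA2 measured 70.0 ± 20.3, 95.4 ± 21.4 and 58.5 FPKM and PALB2 77.5 ± 9.06, 62.1 ± 6.09 and 63.1 FPKM in heat plus L-Asp, heat stress and control. The ratio of BRCA2 to PALB2 was 0.578 to 1.32 with heat plus L-Asp, 1.31 to 1.71 with heat stress and 0.902 to 0.961 in control. BARD1, the partner of BRCA1 in a ubiquitin ligase, exceeded BRCA1 by 1.84 to 3.03 times, 1.66 to 1.82 times and 2.22 to 2.41 times in these groups. XRCC2 and RAD51C, paralogues of the recombinase, lay at 25.6 ± 4.64 and 16.1 ± 3.71 FPKM with heat plus L-Asp, 35.2 ± 7.08 and 15.6 ± 1.93 FPKM with heat stress and 37.4 and 16.6 FPKM in control. RAD52 and the translocase RAD54L were below 5 FPKM as a mean in every group.

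End joining starts with the Ku ring, made of the XRCC5 (Ku80) and XRCC6 (Ku70) proteins, and the kinase PRKDC that binds it. The ratio of the Ku genes was lower in the heated libraries than in control, whose near-identical libraries are counted as 1. XRCC5 over XRCC6 was 0.398 to 0.943 with heat plus L-Asp, 0.708 to 1.41 with heat stress and 1.47 to 1.53 in control, so that no heated library reached the control ratio. These ratios were formed after the values had been seen and were not tested. PRKDC and the ligase LIG4 were measured at lower levels, at 3.33 ± 0.935 and 5.4 ± 1.58 FPKM with heat plus L-Asp, 1.82 ± 0.955 and 5.94 ± 0.144 FPKM with heat stress and 2.45 and 4.37 FPKM in control.

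Of the mismatch repair genes, MSH6 and MSH3, which pair with the same partner to recognise small and larger mismatches, were the abundant ones. MSH6 over MSH3 was 1.47 to 2.69 with heat plus L-Asp, 0.728 to 1.04 with heat stress and 1.165 to 1.21 in control. MLH3 averaged 1.97, 1.94 and 2.58 FPKM and PMS2 0.448, 0.283 and 0.306 FPKM in the same groups. In nucleotide excision repair the damage verifier XPA led (29.9 ± 2.8, 37.5 ± 10.1 and 34.3 FPKM). It was followed by the damage sensor XPC (9.59 ± 3.98, 11.2 ± 5.63 and 8.80 FPKM). The nuclease subunit ERCC1 and the helicases ERCC2 and ERCC3 had group means of at most 1.88 FPKM. In the Fanconi anaemia pathway FANCI exceeded its partner FANCD2 by 11.55 to 17.1 times with heat plus L-Asp, 7.9 to 14.7 times with heat stress and 14.7 to 19.5 times in control. FANCA, a core complex subunit, was barely detected. It had 0.0237 to 1.15 CPM with heat plus L-Asp, 0 to 3.49 CPM with heat stress and 0.0962 to 0.248 CPM in control, with no count in heat stress replicate 1, which allows up to 0.0608 CPM.

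The members lie on 16 chromosomes, most often on chromosome 6 (7 genes) and chromosome 7 (5 genes). Their median transcript length, derived from the ratio of counts to FPKM, was 5556 bases over the 43 members with enough counts, against 4599 bases over 11902 genes. Of the 44 members, 37 carry the ontology term DNA repair in the table, and 13 carry the KEGG term homologous recombination. The rows of 17 members overlap another gene, among them CHEK1 (with STT3A), BRCA2 (N4BP2L1), MSH3 (an unnamed gene), XPA (NCBP1), APEX1 (OSGEP), FANCI (POLG and RLBP1) and RAD50 (IRF1 and KIF3A). The sources give no strand setting, so that reads of such neighbours may not have been told apart where they overlap.

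The first comparison, heat plus L-Asp with heat stress, addresses the effect of L-Asp on the measured repair RNA of heated oocytes. By edgeR (quasi-likelihood test, p-values adjusted by Benjamini-Hochberg over 15012 genes), 0 of the 44 members passed an adjusted p of 0.05, as did 0 (0%) of all genes. The smallest adjusted p of a member was 0.738. DESeq2 called 0 members as well, against 0.934% of the genes for which it gave an adjusted p. At an unadjusted p under 0.05, 2 members differed, PRKDC higher and MSH3 lower, which is 4.55% of the members against 6.61% of all genes tested (3.52% higher and 3.1% lower). The member share is thus near the background. Above 0 lay 21 members and below it 23, where 49% and 50.6% of all genes did, with a median log2 fold change of -0.08, against -0.01 over all genes tested. Of the markers, GATA4 (cumulus and granulosa), WEE2 and KPNA7 (oocyte) and TAGLN (theca and stroma) were higher with L-Asp at an unadjusted p under 0.05 by edgeR. No marker was lower at that threshold, and none passed adjustment. Of the 16 cumulus and granulosa markers tested, 5 had a log2 fold change above 0 and 11 below it. Theca and stroma markers had 2 above and 3 below, and oocyte markers 9 above and 4 below. GATA4 measured 103, 143 and 168 CPM with heat plus L-Asp, against 42.9, 48.5 and 120 CPM with heat stress. The part of these markers was not tested.

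MSH3 (ENSSSCG00000014126, chromosome 2, 89250003 to 89453936) had the smallest p. It measured 160, 137 and 92.6 CPM with heat plus L-Asp, against 302, 207 and 182 CPM with heat stress and 196 to 205 CPM in control. Each of the heat plus L-Asp libraries lay below each of the other libraries. The log2 fold change over heat stress was -0.83 ± 0.26 (SE), with an unadjusted p of 0.00947 and an adjusted p of 0.738 by edgeR. Leaving out 1 library gave -1.005 to -0.58, the smallest difference without heat stress replicate 1, at unadjusted p-values of 0.00506 to 0.0474 by edgeR. PRKDC, the DNA-dependent protein kinase of end joining (ENSSSCG00000006274, chromosome 4, 79687375 to 79846656), went the other way. It had 41.2, 47.0 and 70.2 CPM with heat plus L-Asp, against 20.5, 41.6 and 20.5 CPM with heat stress and 41.8 to 42.6 CPM in control. Heat stress replicate 2 lay close to the control level and overlapped the heat plus L-Asp libraries. The log2 fold change was 0.94 ± 0.34 (SE), with an unadjusted p of 0.0195 and an adjusted p of 0.738 by edgeR. Without heat plus L-Asp replicate 3 it was 0.68 with an unadjusted p of 0.0985.

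The groups did not overlap for 4 members, 3 lower and 1 higher with L-Asp, which is 9.09% of the members against 11.9% of all genes tested (6.31% higher and 5.54% lower). MSH3 was 1 of them. NBN, the ATM-activating subunit of the end-processing complex, measured 11.5, 9.82 and 1.45 CPM with heat plus L-Asp, against 18.5, 16.6 and 12.3 CPM with heat stress and 7.84 to 11.2 CPM in control. Its heat plus L-Asp replicate 3 stood apart from the other libraries of that group. FANCM, a translocase that remodels stalled forks, had 93.1, 83.5 and 67.6 CPM with heat plus L-Asp, against 134, 97.5 and 94.9 CPM with heat stress and 75.6 to 80.0 CPM in control. UNG was higher with L-Asp, at 57.9, 59.0 and 75.1 CPM, against 53.4, 53.8 and 35.7 CPM with heat stress and 68.2 to 69.8 CPM in control. For FANCM, heat stress replicate 3 and heat plus L-Asp replicate 1 nearly met. The unadjusted p-values of NBN, FANCM and UNG were 0.11, 0.0981 and 0.117 by edgeR, and their adjusted p-values 0.759, 0.747 and 0.76.

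**Figure D2:**
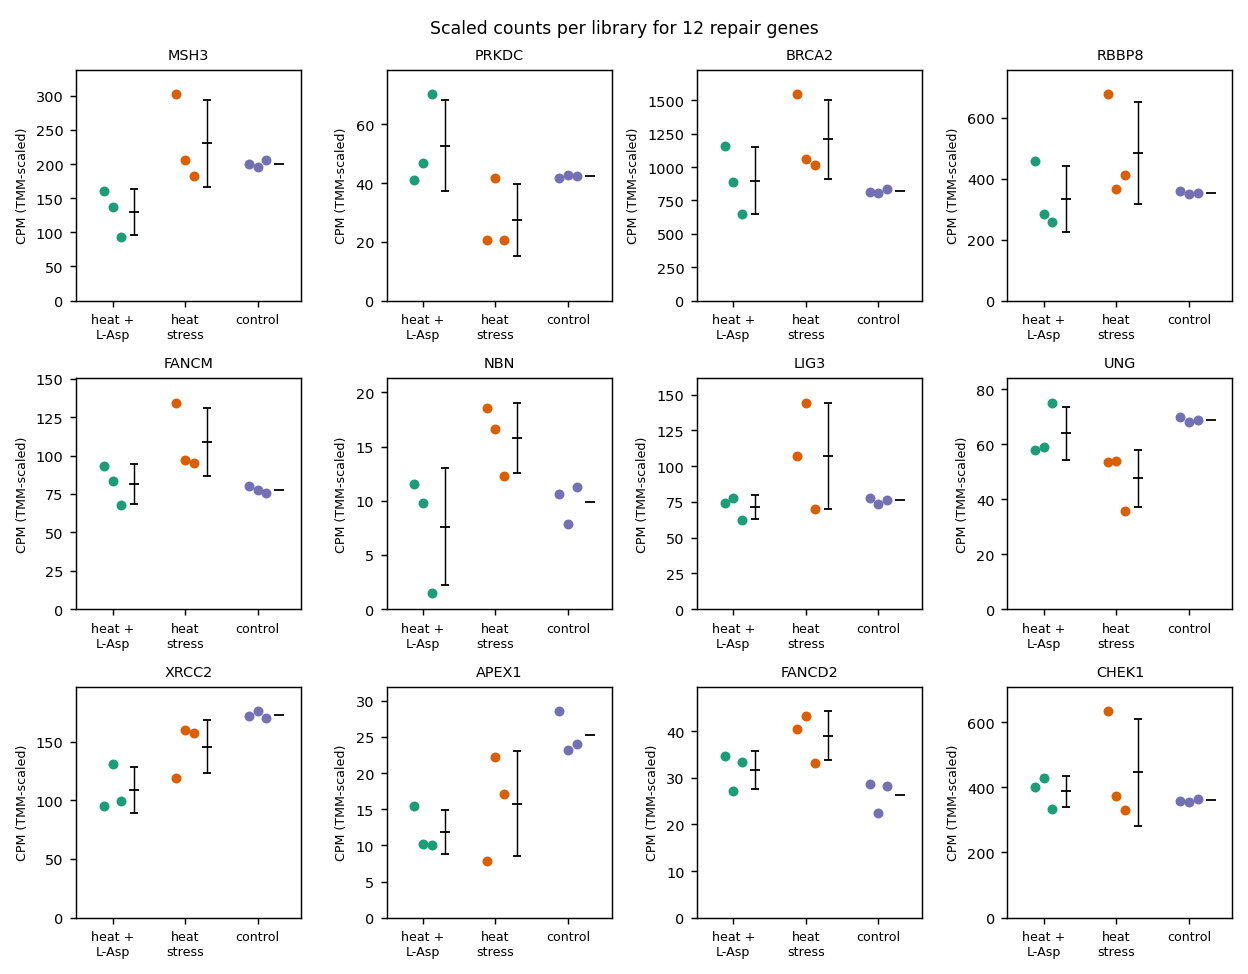
TMM-scaled CPM of 12 members in each library, with a panel per gene; bars give the mean ± SD (n = 3) of the heated groups and a dash the averaged control, which has no SD. MSH3 is lower with heat plus L-Asp (92.6 to 160 CPM) than with heat stress (182 to 302 CPM), and several panels show heat stress replicate 1, drawn leftmost in its group, far from the other heat stress libraries.

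By route, the 4 genes of double-strand end processing all lay below 0, with log2 fold changes of -1.055 to -0.31 and a median of -0.46, and none passed. The lowest, NBN, was -0.57 without heat plus L-Asp replicate 3, and RBBP8 was -0.22 without heat stress replicate 1 and -0.84 without heat plus L-Asp replicate 1, in place of -0.54. RBBP8 measured 458, 286 and 258 CPM with heat plus L-Asp, against 678, 366 and 414 CPM with heat stress and 349 to 360 CPM in control. The groups overlapped, since heat plus L-Asp replicate 1 was above 2 of the heat stress libraries. BRCA2 had 1156, 889 and 650 CPM with heat plus L-Asp, against 1544, 1060 and 1015 CPM with heat stress and 807 to 839 CPM in control. Here too heat plus L-Asp replicate 1 lay among the heat stress libraries. LIG3, a ligase of single-strand break repair, measured 74.1, 78.0 and 62.4 CPM with heat plus L-Asp, against 107, 144 and 70.1 CPM with heat stress and 73.8 to 78.0 CPM in control. On the log2 scale the difference was -0.58 ± 0.27 (SE), at an unadjusted p of 0.0544 and an adjusted p of 0.738 by edgeR. In base excision and single-strand break repair 7 of 9 genes lay above 0 (median 0.16), and in Fanconi anaemia genes 1 of 4 (median -0.36). Homologous recombination was split, with 4 of 8 above 0, as was damage signalling with 3 of 6. Of mismatch repair genes 3 of 4, of nucleotide excision genes 2 of 5 and of end joining genes 1 of 4 lay above 0. Among other genes of these routes, described below, 2 of 8, 9 of 17 and 0 of 8 did, in the same order.

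Heat stress against control compares oocytes heated without L-Asp with unheated ones. The control libraries also differed from heat stress libraries in depth, genes detected and spread, which cannot be told apart from heat here. No member passed: 0 of 44 had an adjusted p under 0.05 by edgeR (0% of all genes), 0 had an unadjusted p under 0.05, where 3.86% of all genes did (1.96% higher and 1.9% lower), and DESeq2 called 0, against 1.13% of its genes. With the control libraries counted as 3 replicates, edgeR called 433 genes and still 0 members. The member of smallest unadjusted p was UNG (0.148). Above 0 lay 21 members and below it 23, where 50.1% and 49.9% of all genes did, with a median log2 fold change of -0.05, against 0.002 over all genes tested. The SE of a member's log2 fold change had a median of 0.39 over the 34 members with at least 10 mean CPM. Differences of the sizes seen were therefore not detectable at this replication, which does not show that they were absent.

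Oocyte markers and cumulus and granulosa markers moved beside these values. Of the 13 oocyte markers tested, 5 had an unadjusted p under 0.05 by edgeR. With heat stress OOEP was higher, and BMP15, MOS, WEE2 and BTG4 were lower. Of the 16 cumulus and granulosa markers tested, 4 had an unadjusted p under 0.05, all higher with heat stress (CYP11A1, GJA1, GATA6 and INHBA). For both lists edgeR called 0 after adjustment. CYP11A1, the first enzyme of steroid synthesis, measured 5.98, 6.37 and 15.1 CPM with heat stress, against 0 to 0.116 CPM in control. GJA1, a gap junction protein of cumulus cells, measured 6.97, 7.15 and 13.4 CPM, against 0.191 to 1.56 CPM. DESeq2 called both (adjusted p 0.000344 and 0.0149), as well as GATA6 (0.0316) and the FSH receptor FSHR (0.0322), which had counts in heat stress replicate 3 alone of that group. Their part in the members' values was not tested.

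By route, the counts above and below 0 are given as descriptions, without a test between routes. All 4 end processing genes lay above 0, with log2 fold changes of 0.07 to 0.68 and a median of 0.38. In the heat stress group RBBP8, RAD50 and NBN were above the averaged control in all 3 libraries. RAD50 measured 324, 223 and 205 CPM with heat stress, against 200 to 206 CPM in control, so that replicate 3 lay within the control range. In all, 7 members had all 3 heat stress libraries above the averaged control, 15.9% against 17.3% of all genes, and 14 were below it, 31.8% against 25% of all genes (42.2% on either side). BRCA2 was among the higher ones, with 1544, 1060 and 1015 CPM against 807 to 839 CPM, a log2 fold change of 0.56 ± 0.37 (SE). FANCD2, the Fanconi protein that is ubiquitinated at crosslinks, had 40.4, 43.3 and 33.2 CPM with heat stress, against 22.4 to 28.7 CPM in control. Their unadjusted p-values were 0.158 and 0.163 and their adjusted p-values 1 by edgeR. CHEK1 measured 633, 373 and 332 CPM, against 356 to 363 CPM in control. Only heat stress replicate 1 was far above control, and without it the log2 fold change was -0.03 in place of 0.31.

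Base excision genes lay mostly the other way, with 7 of 9 below 0 and a median of -0.28. UNG was below control in all 3 heat stress libraries, with a log2 fold change of -0.53 ± 0.34 (SE). APEX1, the main endonuclease at sites that have lost a base, measured 7.88, 22.2 and 17.1 CPM with heat stress, against 23.3 to 28.5 CPM in control. Its log2 fold change was -0.68 ± 0.57 (SE). Of nucleotide excision genes 4 of 5 lay below 0 (median -0.25), and of homologous recombination genes 5 of 8 (median -0.20). Among other genes of these routes, described below, 7 of 17 and 8 of 15 did. PCNA measured 7809, 5804 and 7993 CPM with heat stress, against 8439 to 8629 CPM in control. XPA, at 248, 155 and 152 CPM against 184 to 193 CPM, had a fold change near 0 whose sign differed between scalings. The Ku genes overlapped control or scattered: XRCC6 measured 94.9, 102 and 51.8 CPM with heat stress against 52.1 to 55.4 CPM, and XRCC5 144, 84.1 and 39.5 CPM against 85.5 to 90.1 CPM.

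**Figure D3:**
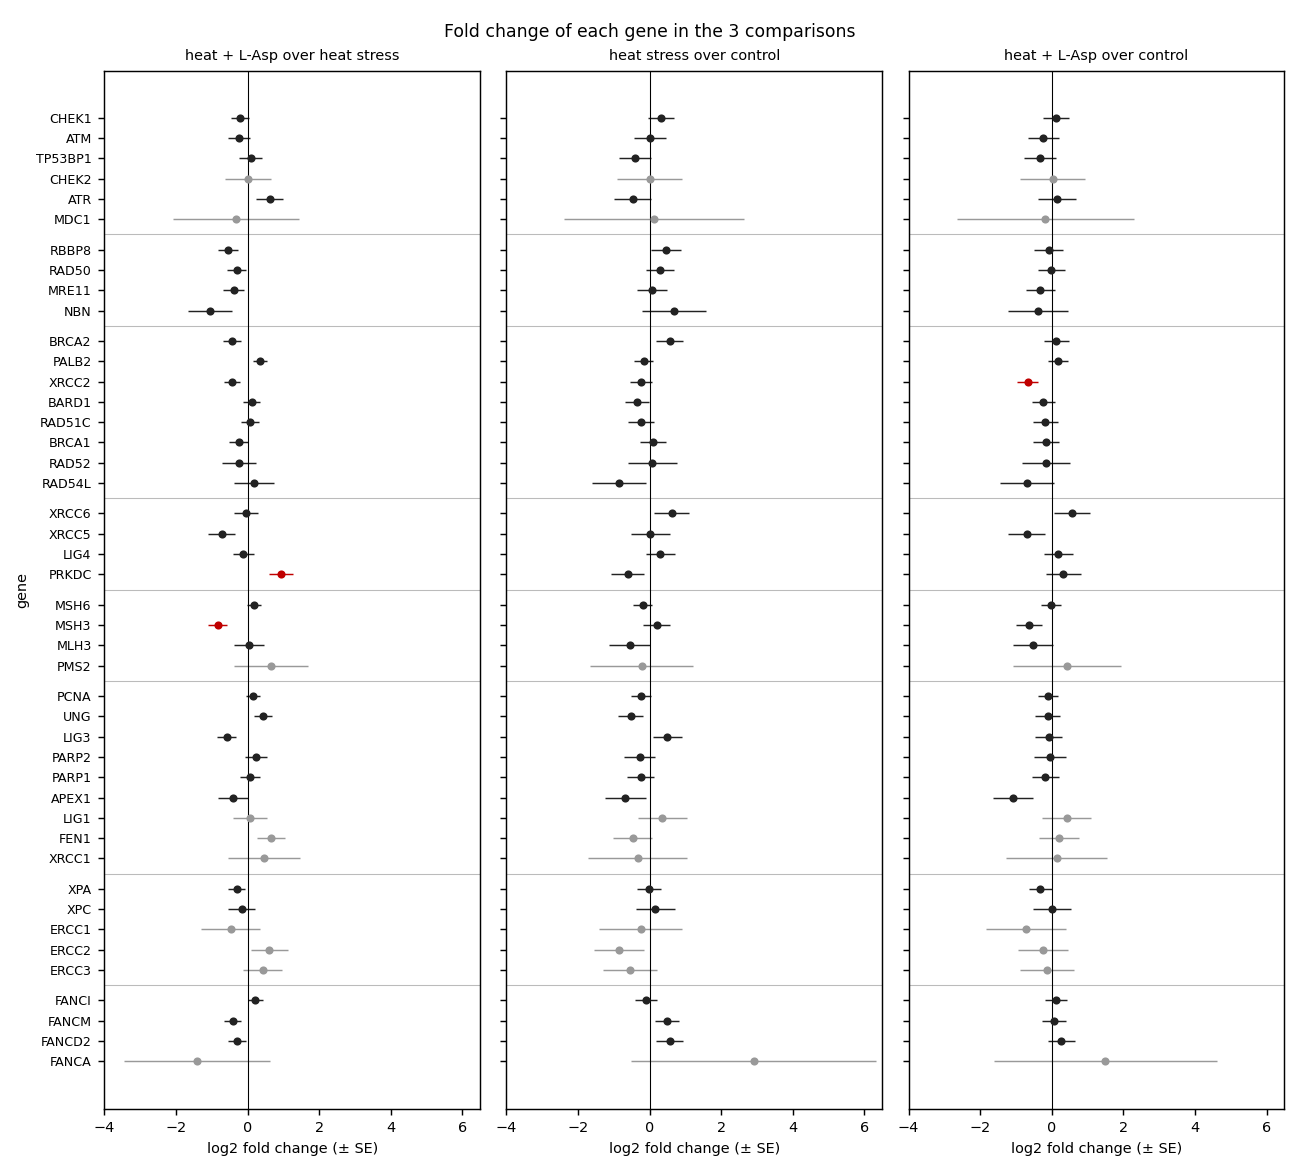
Log2 fold change (± SE, edgeR) of each of the 44 genes in heat plus L-Asp over heat stress (left), heat stress over control (middle) and heat plus L-Asp over control (right), with thin lines between repair routes. Red marks an unadjusted p under 0.05 and grey a mean under 10 CPM; the red points are MSH3 and PRKDC on the left and XRCC2 on the right, and no gene passed after adjustment.

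A single library weighed on many of these values. Heat stress replicate 1 had the highest CPM of its group for 22 of the 44 members, 50.0% against 34.4% of all genes tested. The median member lay at -0.05, -0.12 and -0.18 on the log2 scale over control in heat stress replicates 1, 2 and 3. Over all genes tested these medians were -0.08, -0.06 and -0.05. With heat plus L-Asp, replicate 1 was highest for 19 members (43.2%, against 35.1% of all genes), and the medians were 0.01, -0.21 and -0.20. The mitochondrial share of counts was lowest in replicate 1 of both groups (5.3% with heat plus L-Asp and 3.09% with heat stress). Its part in these differences was not tested. Without heat stress replicate 1 the median member log2 fold change of heat stress over control was -0.18, and 15 members in place of 21 lay above 0. Over the 34 members with at least 10 mean CPM, the median coefficient of variation between libraries was 25.9% with heat plus L-Asp and 25.0% with heat stress. It was lowest for PARP2 (5.42%) with heat plus L-Asp and for LIG4 (6.11%) with heat stress, and highest for RAD54L (73.8%) with heat plus L-Asp and XRCC5 (58.7%) with heat stress.

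The comparison of heat plus L-Asp with control addresses which differences from unheated oocytes were present with L-Asp. It shares the heat plus L-Asp libraries with the first comparison and the control with the second. By edgeR 0 of 44 members passed after adjustment (0% of all genes), and DESeq2 called 0, against 0.386% of its genes. XRCC2 was the 1 member with an unadjusted p under 0.05, 2.27% of members against 3.22% of all genes (1.63% higher and 1.6% lower). XRCC2 (ENSSSCG00000032315, chromosome 18, 4808470 to 4835802) measured 95.1, 131 and 99.5 CPM with heat plus L-Asp, against 171 to 176 CPM in control. With heat stress alone it had 119, 160 and 158 CPM. Its log2 fold change over control was -0.67 ± 0.30 (SE), with an unadjusted p of 0.0461 and an adjusted p of 1 by edgeR. The unadjusted p was under 0.05 in 11 of 19 alternatives, and it was 0.0536 with DESeq2 and 0.136 with total count scaling. Leaving out 1 library gave p-values of 0.0303 to 0.112 by edgeR, above 0.05 without heat plus L-Asp replicate 1, heat plus L-Asp replicate 3 or heat stress replicate 2. Of the 13 oocyte markers tested, 3 were higher (ZP3, ZP4 and OOEP) and 3 lower (BMP15, MOS and BTG4) at an unadjusted p under 0.05 by edgeR. None of them passed adjustment. Beside these values the cumulus and granulosa markers CYP11A1, GJA1, INHBA, INHA and GATA6 had an unadjusted p under 0.05, all higher with heat plus L-Asp, 5 of 16 tested, and 0 passed adjustment by edgeR. CYP11A1 measured 1.32, 7.80 and 0.687 CPM with heat plus L-Asp, against 0 to 0.116 CPM in control (adjusted p 0.0244 by DESeq2). DESeq2 also called FSHR (adjusted p 0.0482), which had counts in heat plus L-Asp replicate 2 alone of that group. The part of these markers was not tested.

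Members lay above 0 in 17 cases and below 0 in 27, where 50.5% and 49.5% of all genes did, with a median log2 fold change of -0.09, against 0.007 over all genes tested. With total counts as the scale 27 members lay above 0, but that scale shifted all genes alike, with 61.6% of all genes above 0 and an all-gene median of 0.18. All 3 heat plus L-Asp libraries together lay above the averaged control for 3 members (6.82%, against 19% of all genes). They lay together below it for 7 members (15.9%, against 26%, or 45% on either side). APEX1 measured 15.4, 10.2 and 10.0 CPM with heat plus L-Asp, against 23.3 to 28.5 CPM in control, a log2 fold change of -1.09 ± 0.56 (SE) with an unadjusted p of 0.0767 and an adjusted p of 1 by edgeR. MSH3 was also below control in every heat plus L-Asp library, with a log2 fold change of -0.63 ± 0.36 (SE) and an unadjusted p of 0.108 by edgeR. XRCC5 had 62.8, 49.9 and 49.3 CPM, against 85.5 to 90.1 CPM in control. The 4 end processing genes lay below 0 (-0.38 to -0.01), and the 4 Fanconi genes above it (0.07 to 1.5, the highest being the barely detected FANCA). Of the other repair genes described below, 5 of 6 for end processing lay above 0 and 8 of 13 Fanconi genes below it. BRCA2 and RBBP8, with log2 fold changes over control of 0.13 and -0.08 with heat plus L-Asp, had 0.56 and 0.46 with heat stress. Without heat stress replicate 1 the values with heat stress were 0.34 for BRCA2 and 0.14 for RBBP8. The comparisons share the control library, and the difference between them is the comparison of heat plus L-Asp with heat stress given above.

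Beyond the members, a list of 121 other repair genes was drawn up from general knowledge of the pathways. Most are of the same routes, and 10, among them MGMT, are of translesion and direct repair, which has no member. Of the 121 genes, 113 had a row and 109 were tested. By edgeR 0 passed after adjustment in any comparison. At an unadjusted p under 0.05 there were 6 (3 higher, 3 lower) for heat plus L-Asp against heat stress, 5 (2 higher, 3 lower) for heat stress against control and 4 (1 higher, 3 lower) for heat plus L-Asp against control. These are 5.5%, 4.59% and 3.67% of the tested genes, near the shares of all genes given above. The median log2 fold changes of this list were -0.11, -0.004 and -0.15.

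The gene of the list with the smallest p against control, in both comparisons, was UBE2T, the ubiquitin-conjugating enzyme that modifies FANCD2 and FANCI. UBE2T (ENSSSCG00000010923, chromosome 10, 24454495 to 24459057) measured 35.2, 20.7 and 45.7 CPM with heat plus L-Asp and 32.3, 26.5 and 38.8 CPM with heat stress, against 128 to 133 CPM in control. No heated library came near the control libraries. Its log2 fold change over control was -1.95 ± 0.40 (SE) with heat plus L-Asp and -2.003 ± 0.40 (SE) with heat stress. By edgeR the adjusted p-values were 0.797 and 0.384, and by DESeq2 they were 0.0265 and 0.00855. Of the 109 genes of the list that passed the filter, UBE2T was the 1 that DESeq2 called against control. Its substrates FANCD2 and FANCI had log2 fold changes of 0.56 and -0.09 over control with heat stress, and neither passed the test.

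RAD1, a subunit of the ring that marks damaged DNA for ATR, had 18.4, 13.1 and 19.7 CPM with heat plus L-Asp and 21.4, 13.3 and 18.9 CPM with heat stress, against 40.2 to 43.8 CPM in control. MGMT, which removes alkyl groups from guanine directly, had 5.62, 7.09 and 5.87 CPM and 3.87, 6.62 and 11.5 CPM, against 21.1 to 24.0 CPM. GTF2H5, a small subunit of the TFIIH complex of nucleotide excision repair, was higher, with 70.7, 99.2 and 69.7 CPM and 71.9, 80.8 and 87.5 CPM, against 36.6 to 39.97 CPM. All 3 heat stress libraries lay on 1 side of the averaged control for 38.5% of the list, against 42.2% of all genes tested. For heat plus L-Asp these shares were 49.5% and 45%. In RAD1, MGMT and GTF2H5, which were picked by smallest p, the heated libraries did not overlap control. Their unadjusted p-values by edgeR were 0.00913 to 0.0117 with heat plus L-Asp and 0.0115 to 0.0195 with heat stress, and all adjusted p-values were 0.839 or more.

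**Figure D4:**
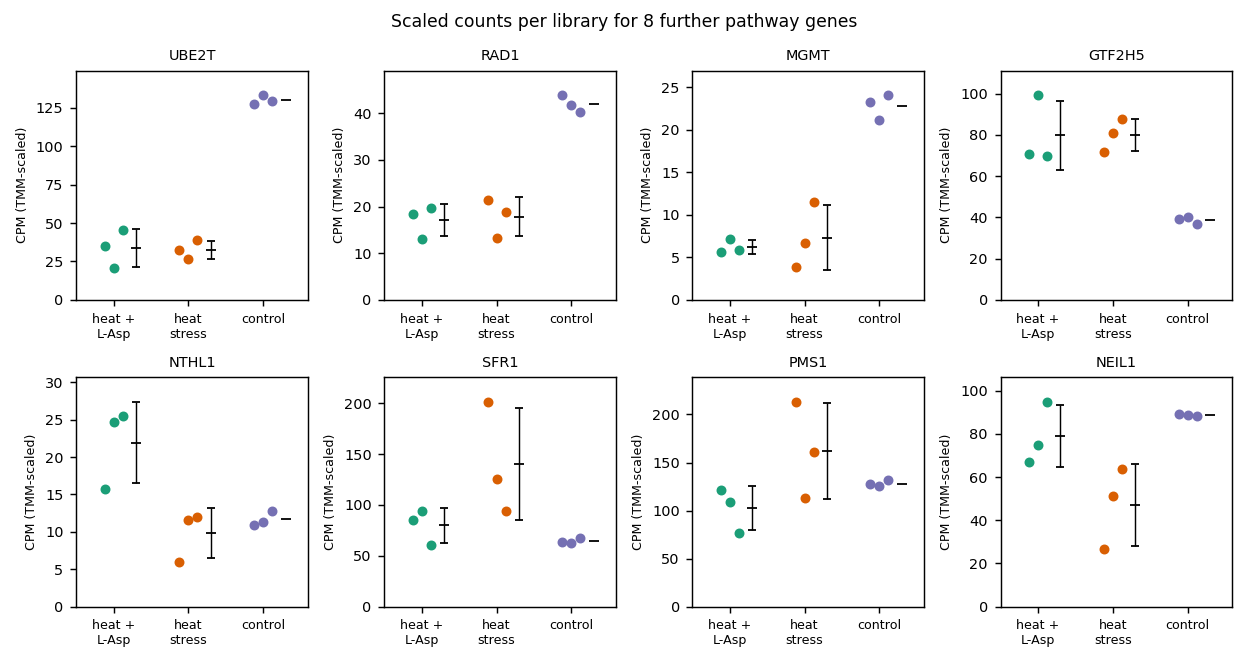
TMM-scaled CPM of 8 further pathway genes in each library; bars give the mean ± SD (n = 3) of the heated groups and a dash the averaged control. UBE2T, RAD1 and MGMT are lower and GTF2H5 is higher in both heated groups than in control, whereas NTHL1, SFR1, PMS1 and NEIL1 are the genes of smallest p for heat plus L-Asp against heat stress.

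Between the heated groups, the DNA glycosylases NTHL1 and NEIL1, which excise oxidised bases, were higher with L-Asp. NTHL1 measured 15.7, 24.7 and 25.5 CPM with heat plus L-Asp, against 5.96, 11.6 and 12.02 CPM with heat stress and 11.0 to 12.8 CPM in control. NEIL1 measured 67.1, 74.8 and 94.8 CPM with heat plus L-Asp, against 26.5, 51.3 and 63.8 CPM with heat stress and 88.2 to 89.4 CPM in control. In both genes, picked by smallest p, the groups did not overlap, as in 10.1% of the list and 11.9% of all genes tested. SFR1, an accessory factor of the recombinase, and PMS1, a mismatch repair gene, were lower. SFR1 measured 85.2, 94.1 and 60.4 CPM, against 201, 126 and 94.2 CPM with heat stress and 62.5 to 67.4 CPM in control. PMS1 measured 122, 109 and 76.9 CPM, against 213, 113 and 161 CPM with heat stress and 125 to 132 CPM in control. The groups did not overlap for SFR1, with 94.1 CPM as the highest value with L-Asp and 94.2 CPM as the lowest without, and they overlapped for PMS1. The log2 fold changes were 1.16 ± 0.39, 0.74 ± 0.31, -0.81 ± 0.30 and -0.66 ± 0.27 (SE) for NTHL1, NEIL1, SFR1 and PMS1. Their adjusted p-values were 0.738 each by edgeR. NTHL1 overlaps TSC2, SFR1 overlaps CFAP43 and PMS1 overlaps ORMDL1 in the table.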

How the data were processed

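RNA from 9 oocyte libraries was copied from an oligo(dT) primer with the SMARTer method and sequenced in pairs, per the labels' protocols. Per the submitters' processing notes, HISAT2 2.2.1 and StringTie 2.1.6 were used beside cutadapt 1.9, and edgeR and DESeq2 are also listed. The sources used here give neither the genome build nor a strand setting. The deposited table holds raw counts per gene and FPKM values made by the authors. It also has 6 columns of per-sample values for samples outside these 9, which were not used. The member list, the other gene lists and the tests were chosen with earlier results of these data known.

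Levels between genes were taken from the deposited FPKM. The counts were tested with edgeR 4.0.16 (quasi-likelihood F test, R 4.3.3) after TMM scaling. Genes were kept by filterByExpr on all 9 libraries, 15012 of 23507. The 3 control libraries, which differed far less than the other replicates, were averaged and rounded into 1 library, so the fit had 7 libraries and 4 residual degrees of freedom. P-values were adjusted by Benjamini-Hochberg over all genes tested, with a threshold of 0.05. CPM are TMM-scaled, and those of single control libraries use the scaling of the averaged one. DESeq2 1.42.0, other scalings and filters, 9 libraries, the replicate block and leaving out each library were alternatives. The fit was tested on simulated data.

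Genes named in the comparisons were members with an unadjusted p under 0.05 (or the 3 smallest p), members with at least 10 mean CPM whose heated groups did not overlap, and the member of highest FPKM in each route. Of the other pathway genes, at most 4 per comparison with an unadjusted p under 0.05 were named. Others were named for their level or after their values were seen. Symbols without a row were not analysed here.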

Additional observations from a re-analysis of the deposited data

How the results depend on the processing

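No member had an adjusted p under 0.05 in any comparison under any alternative run. The number of genes called in all did depend on the fit. With all 9 libraries, which counts the near-identical controls as 3 replicates, edgeR called 2 genes for heat plus L-Asp against heat stress, 433 for heat stress against control and 269 for heat plus L-Asp against control, and 7, 5 and 3 members had an unadjusted p under 0.05. DESeq2 called 179, 183 and 64 genes. Without a filter edgeR called 2, 9 and 3 genes, with 5 members under 0.05 between the heated groups, and with the filter recomputed on 7 libraries it called 2 genes between the heated groups. For heat plus L-Asp against control, 0 members had an unadjusted p under 0.05 with DESeq2, RLE, upper quartile or total count scaling, or a filter on mean counts under 50. The cause was not tested.

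The same replicate numbers did not pair the heated libraries: correlations of deviations were 0.05, -0.02 and 0.01. With the replicate block and all 9 libraries, 378 genes were called for heat stress against control and 223 for heat plus L-Asp against control. Under that block 8, 6 and 4 members had an unadjusted p under 0.05, and the member median of heat stress over control was -0.14. With the 6 heated libraries and the replicate block it was 6 members.

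Total count scaling moved the median of all genes by 0.18 (heat plus L-Asp) and 0.19 (heat stress) over control, and the member medians were 0.085 and 0.12. Over members of at least 10 mean CPM the median of heat plus L-Asp over heat stress was -0.18. Leaving out 1 library gave 0 to 3, 0 to 1 and 0 to 1 genes called, 2 to 5, 0 to 1 and 0 to 2 members under 0.05, and member medians of -0.22 to -0.035, -0.18 to -0.013 and -0.092 to -0.045. Members above 0 numbered 18 to 21, 15 to 22 and 14 to 19.

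Among the named genes some signs turned. Total count scaling shifts all genes alike by the amounts above, so the sign turns under it follow from that shift. Over control, heat stress gave XPA a log2 fold change of 0.017 with DESeq2, 0.017 with RLE, 0.013 with upper quartile and 0.16 with total count scaling, and 0.0085 over genes with mean counts of 50 or more, and FANCI 0.084 with total count scaling. Heat plus L-Asp gave MSH6 0.0067 with DESeq2, 0.010 with RLE, 0.0090 with upper quartile and 0.16 with total count scaling, and 0.015 over genes with mean counts of 50 or more. With total count scaling it gave RBBP8 0.092, LIG3 0.086, UNG 0.067 and PCNA 0.084. Leaving out 1 library, heat stress over control ranged over -0.029 to 0.47 for CHEK1, -0.045 to 0.33 for MSH3, -0.28 to 0.096 for XPA and -0.26 to 0.013 for FANCI. Heat plus L-Asp over heat stress ranged over -0.37 to 0.14 for CHEK1 and -0.38 to 0.24 for XRCC6. Heat plus L-Asp over control ranged over -0.092 to 0.32 for BRCA2, -0.041 to 0.18 for FANCM, -0.38 to 0.071 for RBBP8, -0.077 to 0.090 for MSH6, -0.81 to 0.11 for NBN, -0.15 to 0.00015 for LIG3 and -0.038 to 0.23 for FANCI.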

Other observations

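WEE1, the kinase that restrains entry into division, did not pass the filter for the edgeR test. It had 0 counts in each of the heat plus L-Asp libraries, 0, 94 and 158 counts in heat stress replicates 1, 2 and 3, and 4, 0 and 0 counts in the control libraries. DESeq2 gave an adjusted p of 0.0326 for heat plus L-Asp against heat stress. WEE1 was singled out after its values were seen.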
